A study of Rattus norvegicus with 6 samples.

Results

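The tumor necrosis factor (TNF) superfamily was followed in the tumors of 6 rats. The members were taken by name, as every gene of the deposited table whose symbol begins with Tnfsf or Tnfrsf, together with Tnf, Lta, Ltb, Ltbr, Fas, Faslg, Cd40, Cd40lg, Cd27 and Cd70. This gave 35 of the 17032 genes of the table, of which 15 encode ligands and 20 encode receptors. Ligands of this family are mostly trimeric proteins held on or shed from the cell surface. Their receptors recruit adapter proteins inside the cell and lead either to NFκB signaling or, for those with a death domain, to caspase activation. TNF itself is a main inflammatory driver of NFκB in tumors, and lymphotoxin and the B cell and T cell members of the family organise lymphoid tissue and support lymphocytes.

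Each library is labelled as the primary tumor of 1 rat. PAIII is a hormone-resistant rat prostate cancer line, kept by serial passage in Lobund-Wistar rats, which are immune competent. Rats of 2 months received PAIII cells under the skin of the flank, and the treated animals were given digitoxin, a cardiac glycoside, at 0.03 mg/kg daily by intraperitoneal injection from day 10, while controls received vehicle. Tumors were frozen on day 40, and RNA was taken from 10 punches of viable tissue. The sequenced vehicle rats (tumors B5, B9 and B14) had been picked for high serum IL-6 and CINC-1, and the digitoxin rats (tumors A1, A6 and A12) for low levels of both, so treatment and this choice cannot be told apart. Values are FPKM, which scales the fragments of a gene to its transcript length and to the mapped fragments of the library, in the order B5, B9 and B14 for vehicle and A1, A6 and A12 for digitoxin wherever 3 values are given.

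The libraries differed in ways that the treatment does not follow. The summed FPKM of 9 lung alveolar marker genes was 27263, 35736 and 25.3 in B5, B9 and B14 and 50539, 82842 and 17.6 in A1, A6 and A12, which is 3.26% to 8.08% of all FPKM in A1, A6, B5 and B9 and almost none in A12 and B14. A tumor under the skin of the flank, as the libraries are labelled, would not hold alveolar epithelium, so in those 4 libraries this signal goes against the label, and whether levels there include lung was not tested. A12 and B14 were also the most alike of all pairs across genes (r = 0.985, where genes are not independent replicates). The epithelial keratin Krt8 was abundant in every tumor, between 398 and 2095 FPKM. Of the prostate genes, Pbsn and Klk1 were listed at 0 in all 6 tumors, whereas Tmprss2 was at 7.69 to 34.1 FPKM. A listed 0 need not mean absence in this table, since Col1a2 was at 0 in all 6 tumors beside Col1a1 at up to 1665 FPKM. An earlier analysis of these data put the labels of A1 and B9 in doubt, because the published fold changes followed the columns better with both exchanged. Groups follow the labels here, so a direction holds for the libraries as labelled, and the comparison is also given without A1 and B9. Reads were not analysed, so the depth behind each value is unknown and low FPKM carry no known precision.

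Levels spread widely, and receptors led the order. Of the 35 members, 10 (3 ligands and 7 receptors) averaged at least 10 FPKM across tumors, 18 lay between 1 and 10 FPKM, and 7 were below 1 FPKM and were not tested. Tnfrsf12a, the receptor Fn14 for the ligand TWEAK, had the highest mean at 176 FPKM. The lymphotoxin beta receptor Ltbr followed at 111 FPKM, and Tnfrsf1a, the main signaling receptor of TNF, at 70.7 FPKM. The highest ligands were Tnfsf13 (APRIL) at 57.3 FPKM, Ltb (lymphotoxin beta) at 46.2 FPKM and Tnfsf12 (TWEAK) at 38.8 FPKM. Tnfrsf12a ranked highest in 5 of the 6 tumors, and in A6 Ltbr did. Tnfsf13 was above Tnfsf12 in all 6 tumors, by 1.02-fold to 2.33-fold, while the place of Ltb among these 3 changed between tumors. FPKM is per length of transcript, so the order between genes is given as listed. A listed level can still be wrong for a gene, as with Col1a2 at 0 in all 6 tumors. The split of reads between Tnfsf13 and Tnfsf12 is also uncertain, and so is their order.

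**Figure D1:**
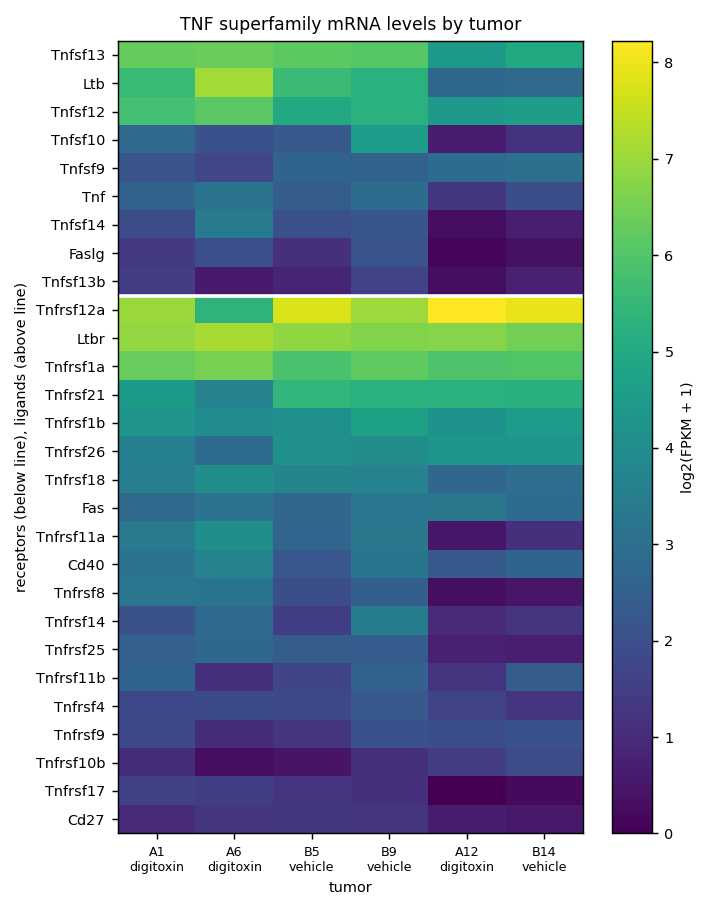
Levels of the 28 tested TNF superfamily members, as log2(FPKM + 1) on the color scale, with ligands above and receptors below the white line, each ordered by mean. Columns are the 6 tumors, with A12 and B14 placed side by side, and 15 of the 28 rows have their 2 lowest values in these columns.

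Ligand transcripts took 24.8, 28.8 and 13.0 in the vehicle tumors and 30.9, 44.8 and 9.24 with digitoxin, as a percentage of the summed FPKM of all 35 members. A12 and B14 thus held the smallest ligand shares and A6 the largest, and the treatment groups overlapped. The summed FPKM of the 35 members varied much less, from 589 in B14 to 695 in A6. Among the 28 tested members, A12 and B14 gave the 2 lowest values for 15 (53.6%), against 29.3% of all tested rows, and the 2 highest for 4 (14.3%), against 30.1% of all tested rows. Of the 9 tested ligands, 7 had their 2 lowest values there. This order is a description and was not tested. In bulk tissue, fewer cells of a type and less RNA per cell cannot be told apart. The standard deviation of log2(FPKM + 1) over the 6 tumors had a median of 0.66 among tested members and 0.51 among all tested rows.

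Several members lie next to each other in the genome, by the positions in the table. Lta, Tnf and Ltb follow each other on chromosome 20 from 6933070 to 6943598, with 1152 bases between Lta and Tnf and 2906 between Tnf and Ltb. Tnfsf13 and Tnfsf12 are only 827 bases apart on chromosome 10, from 56032606 to 56045715, and with libraries that do not keep strand the split of reads between them is uncertain. Cd27, Ltbr and Tnfrsf1a share a stretch of chromosome 4 from 224761676 to 224894088. Tnfrsf1b and Tnfrsf8 are neighbours on chromosome 5, as are Tnfrsf4 and Tnfrsf18. Neighbours could differ in level. On chromosome 20, Ltb was at 46.2 FPKM on average, Tnf at 4.75 FPKM and Lta at 0.419 FPKM.

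The 250 bases before the start site are shown for 5 members, chosen after their values and matches were seen. Ltb, Tnfsf14 and Tnfrsf8 are examples with a κB match that were lowest in A12 and B14, Tnf was lowest there with no match, and Tnfrsf12a was highest there with none. Sequences are from RefSeq on build GRCr8, on the strand of the gene, and capitals mark matches to the κB decamer bound by NFκB or to the AP-1 site TGANTCA. Both motifs were searched on both strands, and overlapping matches were kept.
Ltb, chr20:3634055-3634304, minus strand: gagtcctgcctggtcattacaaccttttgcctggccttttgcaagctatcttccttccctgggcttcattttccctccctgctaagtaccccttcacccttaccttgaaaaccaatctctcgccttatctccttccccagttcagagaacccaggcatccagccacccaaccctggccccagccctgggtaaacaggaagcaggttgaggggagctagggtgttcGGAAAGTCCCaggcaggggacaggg
Tnfsf14, chr9:2160087-2160336, minus strand: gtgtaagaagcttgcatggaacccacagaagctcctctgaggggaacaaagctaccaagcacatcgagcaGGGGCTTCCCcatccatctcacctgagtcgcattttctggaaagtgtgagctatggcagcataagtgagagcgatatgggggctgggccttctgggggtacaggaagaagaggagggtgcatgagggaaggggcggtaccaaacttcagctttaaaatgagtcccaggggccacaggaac
Tnfrsf8, chr5:162451621-162451870, minus strand: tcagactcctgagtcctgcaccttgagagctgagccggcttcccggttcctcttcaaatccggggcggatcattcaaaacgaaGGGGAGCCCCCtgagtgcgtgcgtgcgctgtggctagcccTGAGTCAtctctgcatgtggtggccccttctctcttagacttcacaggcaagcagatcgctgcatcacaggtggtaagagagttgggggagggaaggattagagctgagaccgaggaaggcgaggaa
Tnf, chr20:3626435-3626684, plus strand: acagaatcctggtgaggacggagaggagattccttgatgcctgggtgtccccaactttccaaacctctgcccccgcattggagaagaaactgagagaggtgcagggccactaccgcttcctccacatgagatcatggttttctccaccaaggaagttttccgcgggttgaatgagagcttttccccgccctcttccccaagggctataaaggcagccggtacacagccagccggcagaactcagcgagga
Tnfrsf12a, chr10:13213649-13213898, minus strand: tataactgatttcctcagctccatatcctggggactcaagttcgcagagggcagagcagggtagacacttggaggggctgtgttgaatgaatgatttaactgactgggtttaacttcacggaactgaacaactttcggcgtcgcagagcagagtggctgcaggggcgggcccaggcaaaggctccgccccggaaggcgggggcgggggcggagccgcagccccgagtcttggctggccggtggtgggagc
The match in Ltb begins 25 bases before the start, and that in Tnfsf14 180 bases before it. Tnfrsf8 holds 2 overlapping κB matches and 1 AP-1 match, and the windows of Tnf and Tnfrsf12a hold neither. RefSeq windows matched 25 of the 35 members. The κB decamer was found in 5 of the 25 (Lta, Ltb, Tnfsf14, Fas and Tnfrsf8), or 20%, against 6.33% of all 33469 windows of this length. AP-1 sites were found in 3 of the 25 (Fas, Tnfrsf1b and Tnfrsf8), or 12%, against 6.34% of all windows. Of the 11 tested members that were lowest in A12 and B14 and have a window, 3 held a κB match and 8 did not. A match describes the letters of the window and is not evidence of binding.

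Tnf was a low transcript in every tumor, while its receptors were well expressed. Tnf measured 4.40, 6.45 and 2.98 FPKM in the vehicle tumors and 5.20, 7.94 and 1.53 FPKM with digitoxin. The lowest values were those of A12 and B14, 1 from each group, and the groups overlapped. Tnfrsf1a measured 56.8, 73.7 and 62.9 FPKM in the vehicle tumors and 79.0, 91.8 and 60.3 FPKM with digitoxin, a narrow range over all 6 tumors. Its log2 fold change was 0.24 (standard error, SE, 0.24). Tnfrsf1b, the second TNF receptor, found mainly on leukocytes and endothelium, gave 16.6, 24.4 and 21.7 FPKM in the vehicle tumors and 18.7, 15.0 and 17.9 FPKM with digitoxin. It had a log2 fold change of -0.25 (SE 0.26), opposite in sign to Tnfrsf1a, and neither passed the test. The interval of Tnf itself is wide, with a log2 fold change of -0.062 and a 95% interval of -1.40 to 1.28, which includes more than a 2-fold change either way. The ratio of Tnfrsf1a to Tnfrsf1b was 3.43, 3.02 and 2.90 in the vehicle tumors and 4.22, 6.11 and 3.37 with digitoxin, highest in A6.

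The lymphotoxin branch combined a steady receptor with a variable ligand. Ltbr, which drives lymphoid organ formation and the noncanonical NFκB route, measured 115, 102 and 88.4 FPKM in the vehicle tumors and 119, 140.2 and 105 FPKM with digitoxin. All 6 values lie within 1.59-fold. Ltb measured 48.1, 37.0 and 6.25 FPKM in the vehicle tumors and 45.3, 135 and 5.90 FPKM with digitoxin. A6 stood far above the rest, A12 and B14 held the lowest, and the lowest and highest tumors both came from the digitoxin group. Means of Ltb were 61.9 ± 65.9 FPKM with digitoxin and 30.5 ± 21.7 FPKM with vehicle (SD, n = 3), with a log2 fold change of 0.56 and a standard error of 1.23. It was -0.41 without A6 and -0.30 without B14, so its direction rested on single libraries. The summed FPKM of 5 neutrophil markers stood in the same order as Ltb, at 32651, 10941 and 3284 in the vehicle tumors and 24044, 62385 and 1287 with digitoxin. That of 6 endothelial markers was also highest in A6 (450.2) and lowest in A12 and B14 (71.9 and 84.3). Single markers of both lists departed from the sums. S100a8 and S100a9 made up nearly all of the neutrophil sum. Cxcr2 was lowest in A6 (7.95 FPKM), Csf3r was highest in B9 (29.2 FPKM) and Mmp8 in B5 (34.9 FPKM). The endothelial gene Cdh5 was highest in B9 (27.3 FPKM) and lowest in B5 (5.40 FPKM). The summed FPKM of 10 T and NK cell markers was also lowest in A12 and B14, but was highest in B9 (128), above A6 (101). The part of these cells in the level of Ltb was not tested. For Ltbr the log2 fold change was 0.25 (SE 0.21). Tnfsf14 (LIGHT), a further ligand of Ltbr, gave 3.01, 3.59 and 0.618 FPKM in the vehicle tumors and 2.76, 9.79 and 0.235 FPKM with digitoxin. Its other receptor, Tnfrsf14 (HVEM), gave 1.86, 10.2 and 1.39 FPKM in the vehicle tumors and 3.12, 6.05 and 1.04 FPKM with digitoxin, and A12 and B14 were lowest for both genes. Lta was between 0.0870 and 0.968 FPKM and was not tested.

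**Figure D2:**
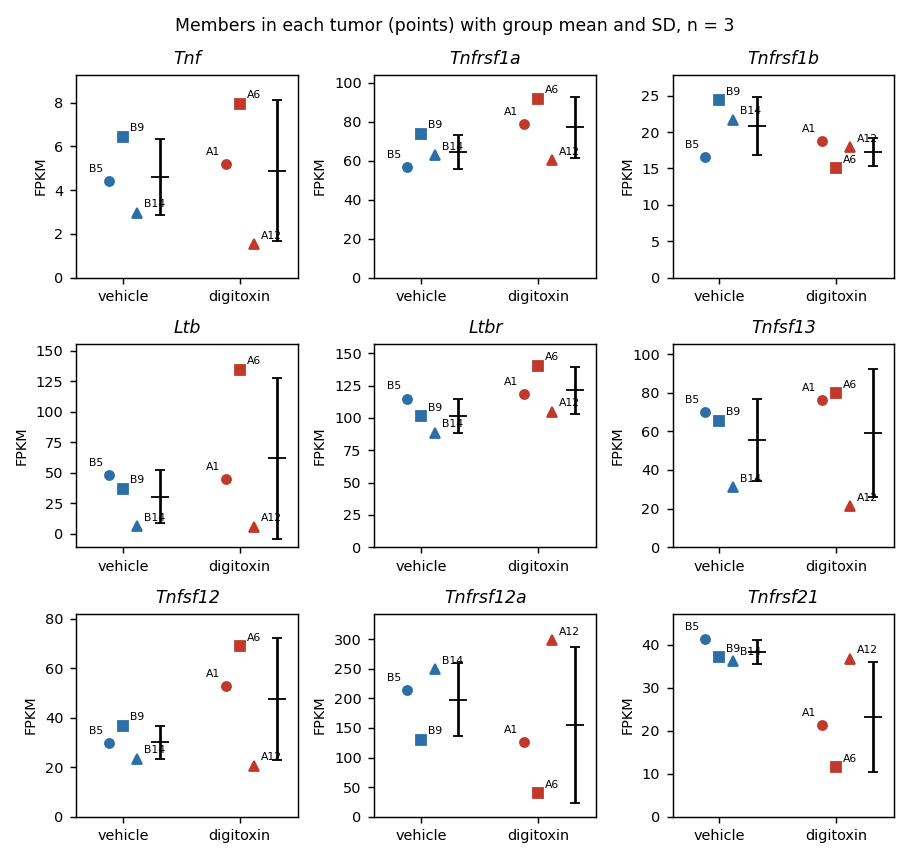
FPKM of 9 members in each tumor (points, labelled), by group, with the group mean and SD as a bar (n = 3). The groups overlap for every gene, and A12 and B14 lie close together for Ltb, Tnfsf12, Tnfsf13 and Tnfrsf21.

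TWEAK and its receptor Fn14 stood in exactly opposite order across the 6 tumors. Fn14 is a small receptor induced in injured and growing epithelium. Tnfrsf12a measured 214, 129.9 and 249 FPKM in the vehicle tumors and 127, 39.6 and 298 FPKM with digitoxin. Its ligand Tnfsf12 measured 30.0, 36.9 and 23.4 FPKM in the vehicle tumors and 52.9, 68.9 and 20.7 FPKM with digitoxin. A6 had the lowest receptor and the highest ligand, and A12 the highest receptor and the lowest ligand, so both extremes fell within the digitoxin group. The ratio of Tnfrsf12a to Tnfsf12 was 7.14, 3.52 and 10.6 in the vehicle tumors and 2.40, 0.574 and 14.4 with digitoxin. Log2 fold changes were -0.73 (SE 0.72) for the receptor and 0.51 (SE 0.47) for the ligand, and neither passed the test. The opposite order is a description of 6 tumors and was not tested. The receptor's became 0.030 without A6 and -1.41 without A12.

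Tnfrsf12a was highest and lowest in the same tumors as the summed epithelial markers. The summed FPKM of 5 epithelial markers (Epcam, Krt8, Krt18, Krt19 and Cdh1) was 4054, 2807 and 3807 in B5, B9 and B14 and 3065, 1408 and 4817 in A1, A6 and A12. Keratins made up most of this sum, and Cdh1 did not follow it, with its lowest value in A12 (90.9 FPKM) and its highest in B9 (135 FPKM). Per 100 FPKM of this sum, Tnfrsf12a stood at 5.27, 4.63 and 6.54 in the vehicle tumors and 4.14, 2.81 and 6.19 with digitoxin. The highest of these is 2.33 times the lowest, whereas Tnfrsf12a FPKM itself ranged over 7.53-fold. Tnfrsf26, a rodent receptor of the TNF-related apoptosis-inducing ligand (TRAIL) group, measured 17.1, 15.7 and 19.0 FPKM in the vehicle tumors and 10.7, 6.33 and 19.1 FPKM with digitoxin. Its range was 3.02-fold in FPKM and 1.60-fold per epithelial FPKM. The summed FPKM of 6 fibroblast markers was 272, 291 and 3927 in the vehicle tumors and 834, 214 and 2778 with digitoxin, with A12 and B14 highest and A6 lowest. Collagens made up most of that sum, Col1a2 was listed at 0 throughout, and Pdgfra was highest in A6 (10.8 FPKM), so the single markers did not all share the order. The part of the epithelial and fibroblast shares in these differences was not tested.

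**Figure D3:**
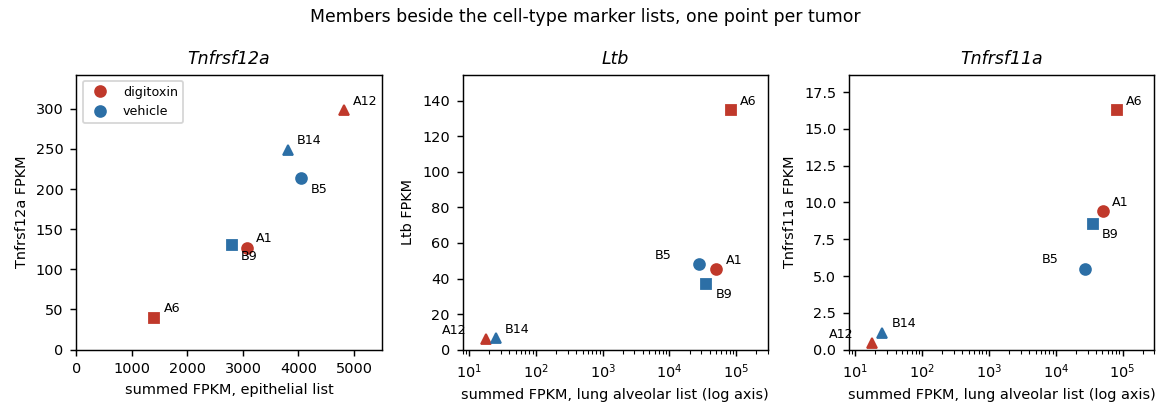
FPKM of Tnfrsf12a against the summed FPKM of 5 epithelial markers, and of Ltb and Tnfrsf11a against that of 9 lung alveolar markers (log axis), with 1 point per tumor (digitoxin red, vehicle blue). Tnfrsf12a is lowest in A6 and highest in A12, and Ltb and Tnfrsf11a are lowest in A12 and B14, where alveolar markers are nearly absent.

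The ligands and receptors of B cells and plasma cells split by level. APRIL, which acts on plasma cells, was one of the most abundant ligands. Tnfsf13 measured 69.9, 65.4 and 31.1 FPKM in the vehicle tumors and 76.4, 79.9 and 21.2 FPKM with digitoxin. A12 and B14 were again lowest, and the other 4 tumors lay between 65.4 and 79.9 FPKM. Its log2 fold change of -0.040 (SE 0.60) reversed to 0.15 with median-of-ratios scaling. Tnfsf13b (BAFF), a survival factor for B cells, was much lower, at 0.817, 2.15 and 0.686 FPKM in the vehicle tumors and 1.80, 0.523 and 0.231 FPKM with digitoxin. Tnfrsf17 (BCMA), the plasma cell receptor of both, gave 1.35, 1.21 and 0.160 FPKM in the vehicle tumors and 2.05, 1.90 and 0 FPKM with digitoxin, where 0 is as listed in A12. Mzb1, a plasma cell gene of the marker list, was at 4.26, 8.94 and 0.126 FPKM with vehicle and 10.3, 9.46 and 0.189 FPKM with digitoxin, low in the same 2 tumors as Tnfrsf17. Sdc1, the other plasma cell marker in the table and also an epithelial gene, went the other way, at 240.1, 222 and 285 FPKM with vehicle and 182, 142 and 338 FPKM with digitoxin. Cd27, carried by T cells and memory B cells, gave 1.51, 1.43 and 0.488 FPKM in the vehicle tumors and 1.01, 1.41 and 0.579 FPKM with digitoxin.

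The Fas and TRAIL branches and DR3 were at lower levels than Tnfrsf1a, the death domain receptor described above. Fas measured 5.56, 8.30 and 6.39 FPKM in the vehicle tumors and 6.24, 7.70 and 8.62 FPKM with digitoxin, a spread of 1.55-fold, with a log2 fold change of 0.14 (SE 0.30). Its ligand Faslg, made by cytotoxic lymphocytes, gave 1.21, 3.26 and 0.296 FPKM in the vehicle tumors and 1.61, 3.06 and 0.0867 FPKM with digitoxin and was lowest in A12 and B14. The TRAIL ligand Tnfsf10 gave 3.90, 21.7 and 1.29 FPKM in the vehicle tumors and 6.02, 3.16 and 0.528 FPKM with digitoxin. B9 alone stood far above the rest, and its log2 fold change of -0.84 (SE 0.97) became 0.084 without that tumor. The TRAIL receptor Tnfrsf10b was at 0.337, 1.14 and 2.72 FPKM in the vehicle tumors and 1.12, 0.227 and 1.81 FPKM with digitoxin. Tnfrsf25 (DR3), a receptor of T cells with a death domain, was at 4.32, 4.25 and 0.625 FPKM in the vehicle tumors and 4.77, 5.70 and 0.670 FPKM with digitoxin, with A12 and B14 lowest.

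Tnfrsf21 (DR6) had the lowest unadjusted p of the 28 tested members, at 0.0893. Tnfrsf21 measured 41.4, 37.1 and 36.3 FPKM in the vehicle tumors and 21.3, 11.5 and 36.7 FPKM with digitoxin. The vehicle tumors lay close together, at 38.2 ± 2.73 FPKM (SD, n = 3), and A1 and A6 lay below all of them. A12 lay among the vehicle values, at 36.7 FPKM against 36.3 FPKM in B14, so the groups overlapped. Its log2 fold change was -0.84 (SE 0.42), with a 95% interval of -1.85 to 0.17. Without A12 it was -1.23, with A1 and A6 as the only digitoxin tumors, and without A6 it was -0.43. Per 100 FPKM of the epithelial markers it measured 1.02, 1.32 and 0.953 in the vehicle tumors and 0.694, 0.818 and 0.763 with digitoxin, and here A12 was below all 3 vehicle tumors as well. That ratio was formed after the values were seen and has no test. The epithelial sum used as its divisor was itself highest in A12 (4817). How many of all rows would separate the groups after the same division was not counted.

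The RANK system of bone and lymphoid tissue differed in balance between tumors. Tnfrsf11a (RANK) measured 5.49, 8.56 and 1.16 FPKM in the vehicle tumors and 9.40, 16.3 and 0.416 FPKM with digitoxin. Its lowest values were those of A12 and B14. Tnfrsf11b, the secreted decoy osteoprotegerin, gave 2.32, 4.98 and 4.34 FPKM in the vehicle tumors and 5.32, 1.17 and 1.43 FPKM with digitoxin. The ratio of RANK to osteoprotegerin was 2.36, 1.72 and 0.268 in the vehicle tumors and 1.77, 13.9 and 0.291 with digitoxin, so A6 stood highest and A12 and B14 lowest. Their ligand Tnfsf11 (RANKL) was listed at 0 in A6 and B5 and reached 0.717 FPKM in B9. The log2 fold change of Tnfrsf11a was 0.31 (SE 1.05), and it was negative without A1, A6 or B14.

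Costimulatory receptors of lymphocytes and antigen-presenting cells ranged in mean level from Cd27 at 1.07 FPKM to Tnfrsf18 at 10.4 FPKM. Cd40 measured 3.70, 8.09 and 5.28 FPKM in the vehicle tumors and 7.77, 11.6 and 4.02 FPKM with digitoxin, with a log2 fold change of 0.35 (SE 0.46). Cd40 is the antigen-presenting cell receptor for T cell help, and its ligand Cd40lg was at most 0.315 FPKM. Tnfrsf18 (GITR), found on regulatory T cells, gave 12.5, 11.5 and 6.75 FPKM in the vehicle tumors and 10.5, 15.6 and 5.53 FPKM with digitoxin, with a log2 fold change of -0.023 (SE 0.44) that became 0.16 with median-of-ratios scaling. Tnfrsf4 (OX40) gave 2.48, 3.87 and 1.41 FPKM in the vehicle tumors and 2.45, 2.58 and 2.16 FPKM with digitoxin, and its ligand Tnfsf4 was at most 0.201 FPKM. Tnfrsf9 (4-1BB) gave 1.40, 3.23 and 3.23 FPKM in the vehicle tumors and 2.56, 1.09 and 2.93 FPKM with digitoxin. The ligand of 4-1BB, Tnfsf9 measured 5.28, 4.86 and 7.21 FPKM in the vehicle tumors and 3.51, 2.33 and 6.54 FPKM with digitoxin, and was highest in A12 and B14, unlike all of the other 8 tested ligands. Tnfrsf8 (CD30) showed one of the widest spreads, at 2.96, 4.55 and 0.424 FPKM in the vehicle tumors and 8.35, 8.08 and 0.224 FPKM with digitoxin, with A12 and B14 lowest. The summed FPKM of the 10 T and NK cell markers was 104, 128 and 59.2 in B5, B9 and B14 and 78.7, 101 and 32.3 in A1, A6 and A12, lowest in A12 and B14. Single markers departed from this sum, since Cd4 was highest in B14 (19.2 FPKM) and lowest in A6 (5.43 FPKM), and Cd8b was lowest in A6 (2.82 FPKM). The part of T and NK cells in the receptor and ligand levels was not tested.

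The members below the minimum were 6 ligands and 1 receptor. Cd70 was listed at 0 in 4 tumors, Tnfrsf19 in 3, and Tnfsf4, Tnfsf11, Tnfsf15 and Cd40lg in 2 each. Tnfsf15 (TL1A), the ligand of DR3, is described although it was too low for the main test. Tnfsf15 measured 0.175, 0.980 and 0.717 FPKM in the vehicle tumors and 0.117, 0 and 0 FPKM with digitoxin. The vehicle values all lay above those with digitoxin. With no filter on low values its log2 fold change was -0.61 and it was the 1 member of 35 with an unadjusted p under 0.05, against 0.906% of all 14346 rows in that fit. It was also the 1 member without overlap there, against 4.06% of all rows. All its values are below 1 FPKM, where precision is unknown.

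The question of the comparison was whether tumors of digitoxin-treated rats differed from control tumors in this family, through which NFκB is driven. Limma's moderated test on log2(FPKM + 1) gave 0 of the 28 tested members an adjusted p under 0.05, and 0.0% of all 10742 tested rows passed. The lowest adjusted p of a member was 0.926. Before adjustment, again 0 of 28 had a p under 0.05, against 0.335% of all rows. The groups overlapped for all 28, while 4.16% of all rows had no overlap. With the replicate number as a block, 0 of 28 had an unadjusted p under 0.05, against 4.16% of all rows in that fit. Without A1 and B9, 0 of 28 had an unadjusted p under 0.05, against 0.102% of all rows, and Fas, Tnfrsf11b and Tnfsf13b did not overlap between the groups (3 of 28), against 12.7% of all rows. With 3 rats a group, the smallest p that an exact permutation test allows is 0.10. These results do not show that the groups were alike, since the 95% intervals of Ltb (-2.43 to 3.55) and Tnfrsf11a (-2.25 to 2.86) each cover more than a 4-fold change both ways.

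The tested members split by sign into 11 higher and 17 lower with digitoxin, with a median log2 fold change of -0.034. Over all tested rows the median was -0.16, so the members stood 0.13 above it. Median-of-ratios scaling moved the median of all rows by 0.18 and turned the split to 18 higher and 10 lower. The 9 tested ligands had a median of -0.040, with 3 higher and 6 lower, and the 19 tested receptors -0.023, with 8 higher and 11 lower. Under the scaling these became 6 higher and 3 lower for ligands and 12 higher and 7 lower for receptors. Of the 14 members with a mean of at least 5 FPKM, Tnfrsf21, Tnfrsf12a, Tnfsf10 and Tnfrsf26 had the most negative log2 fold changes, at -0.84, -0.73, -0.84 and -0.60. Tnfrsf26 had a standard error of 0.41. Ltb, Tnfsf12 and Cd40 had the most positive, and that of Cd40 was 0.041 without A6 and 0.12 without B5.

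**Figure D4:**
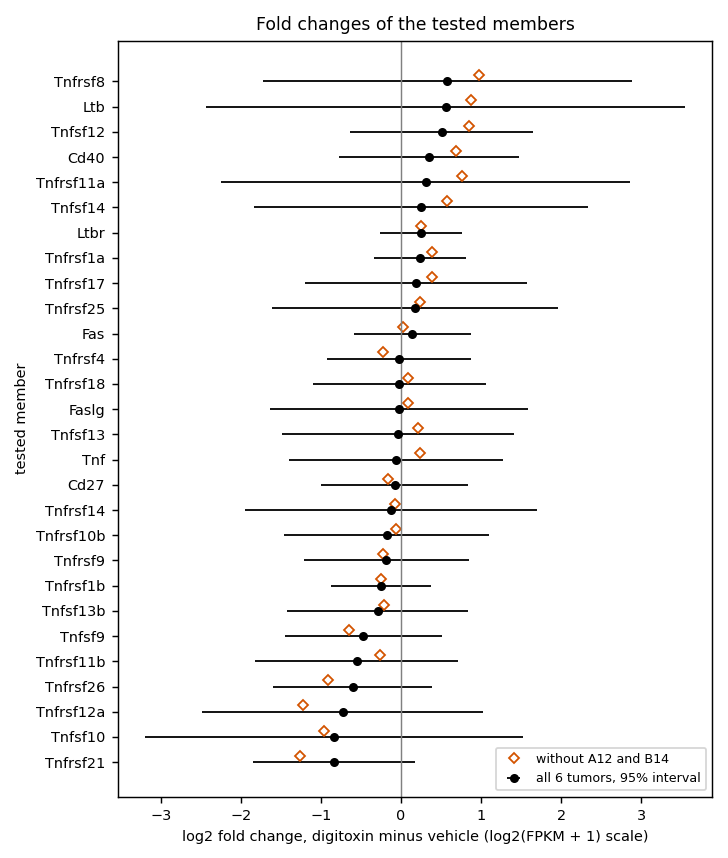
Log2 fold changes of the 28 tested members (digitoxin minus vehicle, log2(FPKM + 1) scale), with 95% intervals from limma over all 6 tumors (black) and the value without A12 and B14 (open diamonds). Every interval includes 0, and the 3 lowest diamonds are those of Tnfrsf21, Tnfrsf12a and Tnfsf10.

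Of the single tumors, A12 changed the counts of members most. Without it, 4 of the 28 members had an unadjusted p under 0.05, against 19.7% of all rows. These were Tnfrsf12a (-1.41), Tnfrsf21 (-1.23) and Tnfrsf26 (-0.97), which were lower in log2 terms, and Tnfsf12 (1.01), which was higher. Leaving out A6 in place of A12 brought these log2 fold changes toward 0, to 0.030, -0.43, -0.25 and 0.16 in the same order, so their size rested on both of these tumors. In the fit without A12, 12 of the 28 did not overlap, against 51.0% of all rows. Without both A12 and B14, 2 members had an unadjusted p under 0.05 (Tnfrsf21 and Tnfsf12), against 11.1% of all rows, and 13 did not overlap, against 57.3% of all rows. No member had an adjusted p under 0.05 in limma's fits without A12 or without both. For Tnfrsf12a, Tnfrsf21, Tnfrsf26 and Tnfsf12, A12 had 298, 36.7, 19.1 and 20.7 FPKM. B14 had 249, 36.3, 19.0 and 23.4 FPKM, so Tnfrsf12a was higher in A12. The lung alveolar signal in A1 and A6 was above that in B5 and B9, and its part in the fold changes without A12 was not tested.

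Around the ligands and receptors, 54 of 70 listed genes of the pathway were tested, and none had an adjusted or an unadjusted p under 0.05 in limma's test. With the replicate block, 2 of the 54 (3.70%) had an unadjusted p under 0.05, against 4.16% of all rows, namely the chemokines Cxcl2 (-2.15, SE 0.36) and Ccl2 (-1.20, SE 0.25), by their log2 fold changes. With median-of-ratios scaling 1 did, the growth factor Csf2 (0.69, SE 0.28), against 0.354% of all rows. The median log2 fold change of the 54 was -0.18, with 17 higher and 37 lower, near that of all rows, and with median-of-ratios scaling 28 were higher and 26 lower. The 22 adapters and partners had a median of -0.33, with 6 higher and 16 lower, the 6 ubiquitin editors 0.18, with 4 higher and 2 lower, and the 20 TNF-responsive targets -0.24, with 7 higher and 13 lower. Under that scaling the adapters were 9 higher and 13 lower, the editors 5 higher and 1 lower, and the targets 9 higher and 11 lower. Relt, the 1 tested superfamily receptor outside the naming rule, had a log2 fold change of -0.10 (SE 0.44). The 5 shedding genes, which include Adam17, were all lower, with a median of -0.13, but 4 of the 5 were higher under that scaling. Groups did not overlap for 3 of the 54, against 4.16% of all rows. Tank, a TRAF-binding scaffold, measured 10.2, 13.1 and 11.6 FPKM in the vehicle tumors and 7.16, 3.07 and 8.44 FPKM with digitoxin, with a log2 fold change of -0.89 (SE 0.40). Cflar, the caspase-8 inhibitor c-FLIP, measured 8.27, 13.97 and 10.2 FPKM in the vehicle tumors and 7.12, 3.10 and 8.24 FPKM with digitoxin, with a log2 fold change of -0.78 (SE 0.42). Tnip1, a partner of the ubiquitin editor A20, measured 59.6, 62.9 and 59.9 FPKM in the vehicle tumors and 66.4, 86.8 and 63.2 FPKM with digitoxin, with a log2 fold change of 0.23 (SE 0.21).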

How the data were processed

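The authors made unstranded TruSeq mRNA libraries, sequenced single reads, used Bowtie 2 and TopHat 2 for alignment, and deposited 1 table of FPKM per gene from Cufflinks. Per the labels, Bowtie2, CASAVA, Cuffdiff, Cufflinks, FastQC and TopHat2 were used and the genome build was hg19, yet the table holds rat symbols and chromosomes 1 to 20 and X, so its build is uncertain. Positions are as the table lists them. Scaling between libraries and read depth are not given in the sources used here, and the authors' test, which needs reads, was not repeated.

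For each symbol, the row with the highest mean was kept. Rows averaging at least 1 FPKM across tumors (10742) were tested as log2(FPKM + 1), 3 digitoxin against 3 vehicle tumors, with limma 3.58.1 in R 4.3.3 (trended eBayes, two-sided, Benjamini-Hochberg adjusted over all rows). Fold changes on this scale understate those of low genes. The fit was run on simulated data first, with large changes, raised gene levels and independent noise. That run does not bear on small changes or on genes at low levels. The members, gene lists and markers were chosen with earlier results of these data known. Log2 fold changes are given for tested members with a mean of at least 5 FPKM, and those of Tnf and Tnfsf15 were added. Pathway genes are given with values where groups did not overlap, and Cxcl2, Ccl2, Csf2 and Relt were added after their values were seen. Nothing says which libraries were prepared together, and p-values measure only the spread between these 6 rats. Deviations from the group means correlated for same-numbered tumors at r = 0.430, 0.606 and 0.869 for replicates 1 to 3. A1 with B9 (0.648) and A6 with B5 (0.613) exceeded those of replicates 1 and 2, so these values do not establish pairs. The main fit had no block, and the replicate block is given only as an alternative. Alternatives tried were a replicate block, leaving out tumors, median-of-ratios scaling, no filter, a pseudocount of 0.1, untrended eBayes and ratios of group means.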

Additional observations from a re-analysis of the deposited data

How the results depend on the processing

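No member had an adjusted p under 0.05 in limma under any alternative. The count of members at an unadjusted p under 0.05 was 1 with no filter, 2 without A12 and B14, and 0 to 4 with single tumors left out, the 4 being without A12. As shares of the members in each fit these were 2.86%, 7.14% and, without A12, 14.3%, against 0.906%, 11.1% and 19.7% of all rows. Members without overlap between the groups numbered 1 with no filter, 13 without A12 and B14, 3 without A1 and B9, and 0 to 12 with single tumors left out, the 12 being without A12. Their shares were 2.86%, 46.4%, 10.7% and, without A12, 42.9%, against 4.06%, 57.3%, 12.7% and 51.0% of all rows. For the other single tumors left out, the overlap share of all rows was not computed. Pathway genes at an unadjusted p under 0.05 numbered 1 with median-of-ratios scaling, 2 with the replicate block, 4 without A12 and B14, and 0 to 11 with single tumors left out, the 11 being without A12. As shares of the 54 these were 1.85%, 3.70%, 7.41% and, without A12, 20.4%, against 0.354%, 4.16%, 11.1% and 19.7% of all rows. The replicate block changed no other call. The members' median log2 fold change ran from -0.29 to 0.34 with single tumors left out.

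Of the 14 members with a mean of at least 5 FPKM, 8 kept the sign of their log2 fold change under all alternatives. With single tumors left out, the log2 fold change ran from -0.41 to 1.73 for Ltb, -0.42 to 1.39 for Tnfrsf11a, -1.41 to 0.030 for Tnfrsf12a, -1.57 to 0.084 for Tnfsf10, -0.33 to 0.34 for Tnfrsf18 and -0.41 to 0.57 for Tnfsf13. Among the 8, it ran from 0.041 to 0.71 for Cd40, 0.029 to 0.28 for Fas, 0.14 to 0.35 for Ltbr, 0.11 to 0.40 for Tnfrsf1a, -0.40 to -0.14 for Tnfrsf1b, -1.23 to -0.43 for Tnfrsf21, -0.97 to -0.25 for Tnfrsf26 and 0.16 to 1.01 for Tnfsf12. Tnfrsf18 also turned positive with median-of-ratios scaling (0.16), without A12 and B14 (0.088), without A1 and B9 (0.022) and as a ratio of group means (0.039). Tnfsf13 did so with that scaling (0.15), without A12 and B14 (0.21) and as a ratio of group means (0.093). The cause was not tested. With 3 tumors a group and unknown depth, members at a few FPKM cannot be resolved.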
